A study of Mus musculus with 41 samples.

Results

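H3K27ac, acetylation of lysine 27 of histone H3, was mapped in mouse microglia taken directly from the brain (ex vivo) and in microglia kept in culture for 7 d. The subject here is the pair of H3K27ac peak lists of these conditions, compared as whole lists, by width, by the bases they cover near each gene, and at single loci. The rule took every peak of both lists: 24520 peaks ex vivo and 31349 at 7 d, 55869 of the 382955 peaks in the 6 mouse peak lists of the series. Each list was called by the submitters on 2 libraries pooled, so 4 of the 41 samples of the series stand behind them and neither list has a spread between replicates. Differences between the lists are therefore given as descriptions, with no test.

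All cells came from C57Bl6 mice and were sorted as CD11b+ CD45Low cells. The age of the mice, and whether a library holds 1 animal or several, are not stated in the labels. For ChIP-seq, 500000 to 2000000 cells per assay were fixed with 1% paraformaldehyde for 10 min. Ex vivo cells were never cultured and received no ligand. Cells of the 7 d group were plated without other brain cells in DMEM/F12 medium with 5% serum and received IL-34, a ligand of the receptor CSF1R, every day. RNA-seq of the same 2 conditions (5 libraries each) was used as a separate readout, with 2 libraries at 6 h, 3 at 22 or 24 h (called 24 h here) and 2 at 7 d with TGFβ added to IL-34. Those 17 libraries were fitted together. Their replicate labels do not tie an RNA library to a ChIP library, and p-values measure the spread between these libraries.

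Histone acetyltransferases such as p300 and CBP place H3K27ac at active promoters and enhancers, and deacetylases remove it. A peak is a stretch where the mark is enriched over input DNA, and a long run of it near a gene is often read as a cluster of active enhancers. In microglia, the factor PU.1 opens much of the enhancer repertoire of the lineage, while signals of the brain, TGFβ among them, keep up a homeostatic programme that includes the transcription factor SALL1 and the receptors P2RY12 and CX3CR1. Isolated microglia are known to lose much of this programme outside the brain.

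8 promoters are shown as examples of starts marked in one list only, or, for P2ry12, in both. They are the 250 bases before the start of 3 homeostatic genes and 5 genes of the 7 d state, 5′ to 3′ on the gene's strand, from RefSeq (GRCm38.p6, the mm10 build). Capitals mark matches to any of 5 short words. These are GAGGAAGT for PU.1, TGANTCA for AP-1, a pair of GAAA words separated by any 2 bases for the interferon response element (ISRE), the E-box CACGTG and the M-box CATGTG that MITF-family factors bind. Both strands were searched, and matches of different words may overlap.
Siglech, chr7:55767934-55768183 (+): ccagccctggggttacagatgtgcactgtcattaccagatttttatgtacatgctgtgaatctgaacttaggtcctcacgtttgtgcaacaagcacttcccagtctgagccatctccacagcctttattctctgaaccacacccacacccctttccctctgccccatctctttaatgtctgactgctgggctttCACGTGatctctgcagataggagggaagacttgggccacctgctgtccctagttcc
Slc2a5, chr4:150119094-150119343 (+): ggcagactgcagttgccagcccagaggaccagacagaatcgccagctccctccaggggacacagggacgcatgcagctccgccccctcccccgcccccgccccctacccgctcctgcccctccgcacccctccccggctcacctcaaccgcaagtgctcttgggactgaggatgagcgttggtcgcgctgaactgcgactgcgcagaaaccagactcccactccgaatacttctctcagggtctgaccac
P2ry12, chr3:59262986-59263235 (-): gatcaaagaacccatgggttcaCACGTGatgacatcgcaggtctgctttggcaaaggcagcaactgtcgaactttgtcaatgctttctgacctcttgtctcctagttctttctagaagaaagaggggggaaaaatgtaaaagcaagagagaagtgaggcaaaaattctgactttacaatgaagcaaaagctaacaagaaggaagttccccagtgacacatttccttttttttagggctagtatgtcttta
Gpnmb, chr6:49036268-49036517 (+): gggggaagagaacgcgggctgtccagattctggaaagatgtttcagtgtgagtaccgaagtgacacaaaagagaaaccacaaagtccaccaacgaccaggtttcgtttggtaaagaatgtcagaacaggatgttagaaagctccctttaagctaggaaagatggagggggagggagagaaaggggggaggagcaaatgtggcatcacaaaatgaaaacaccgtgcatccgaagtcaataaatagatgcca
Mmp12, chr9:7344147-7344396 (+): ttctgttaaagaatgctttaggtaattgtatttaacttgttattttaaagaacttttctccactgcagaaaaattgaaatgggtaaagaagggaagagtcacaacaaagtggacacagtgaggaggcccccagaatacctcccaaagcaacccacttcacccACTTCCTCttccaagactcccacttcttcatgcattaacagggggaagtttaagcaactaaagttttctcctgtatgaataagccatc
Mmp13, chr9:7272264-7272513 (+): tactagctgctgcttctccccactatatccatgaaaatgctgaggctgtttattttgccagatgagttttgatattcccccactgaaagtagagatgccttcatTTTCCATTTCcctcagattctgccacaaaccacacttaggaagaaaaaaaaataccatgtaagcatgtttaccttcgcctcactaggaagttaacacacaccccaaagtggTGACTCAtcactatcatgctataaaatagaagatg
Ifit1, chr19:34640639-34640888 (+): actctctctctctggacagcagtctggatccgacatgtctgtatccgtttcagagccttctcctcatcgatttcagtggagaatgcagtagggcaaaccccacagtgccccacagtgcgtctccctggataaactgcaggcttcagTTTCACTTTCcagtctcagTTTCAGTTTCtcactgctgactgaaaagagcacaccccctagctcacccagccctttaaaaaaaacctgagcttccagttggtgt
Rsad2, chr12:26456453-26456702 (-): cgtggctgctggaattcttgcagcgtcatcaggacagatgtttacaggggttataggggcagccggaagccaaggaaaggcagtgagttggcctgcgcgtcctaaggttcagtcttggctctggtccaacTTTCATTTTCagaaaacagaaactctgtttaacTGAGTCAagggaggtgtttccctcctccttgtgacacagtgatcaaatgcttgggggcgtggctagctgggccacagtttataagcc

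The starts of Siglech, a sialic acid receptor of microglia, and Slc2a5, a fructose transporter, lay inside an ex vivo peak. At 7 d the nearest peak was 15702 bp from the Siglech start and 1069 bp from that of Slc2a5. The P2ry12 start was inside a peak of both lists. The starts of Gpnmb, Mmp12, Mmp13, Ifit1 and Rsad2 lay inside a 7 d peak, while the nearest ex vivo peak was 36495, 6886, 49485, 32505 and 846840 bp away, in that order. Single E-box matches begin 56 bases before the Siglech start and 228 before that of P2ry12. The Mmp12 promoter holds a PU.1 word at 88 bases. Mmp13 holds an AP-1 word at 35 and an ISRE word at 146 bases, Rsad2 an AP-1 word at 87 and an ISRE word at 120, and Ifit1 ISRE words at 85 and 104. No match was found in the Slc2a5 and Gpnmb windows.

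Across 32817 starts of the promoter table, the AP-1 word was present in 6.75%. It was present in 10.29% of the 904 starts within 1 kb of a 7 d peak only, 3.82% of the 1388 near an ex vivo peak only, 4.01% of those near both and 8.31% of those near neither. The ISRE word had shares of 4.2% near a 7 d peak only, 2.52% near an ex vivo peak only and 2.97% over all starts. PU.1 words were present in 2.77%, 1.66% and 2.44% of the same groups, E-boxes in 5.2%, 6.2% and 6.02%, and M-boxes in 12.06%, 9.37% and 12.26%. A match is a description of these letters, and the base composition of the groups was not compared.

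The ex vivo list had fewer peaks than the 7 d list and a higher median width. Among peaks of at least 1 kb the order of the counts turned, with 19359 ex vivo and 16723 at 7 d. Its 24520 peaks covered 61.3 Mb with a median width of 1777 bp, and the 31349 peaks at 7 d covered 50.9 Mb with a median of 1117 bp, a ratio of covered bases of 0.83. Peaks at the narrowest width the caller gave, 501 bp, made up 8.27% of the ex vivo list and 30.52% of the 7 d list. At the other end, 524 ex vivo peaks were wider than 10 kb and held 13.44% of the covered bases, against 177 peaks and 4.67% at 7 d. The widest was 62.6 kb ex vivo and 29.3 kb at 7 d. Depth and enrichment moved with this difference. The ex vivo list was called on 45586997 tags with 64.04% of them in peaks, and the 7 d list on 27568358 tags with 32.13%. Their part in the width difference, and in every later difference in called bases, was not tested. A base outside the peaks of a list was not called there, which does not show that it lacked the mark.

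**Figure D1:**
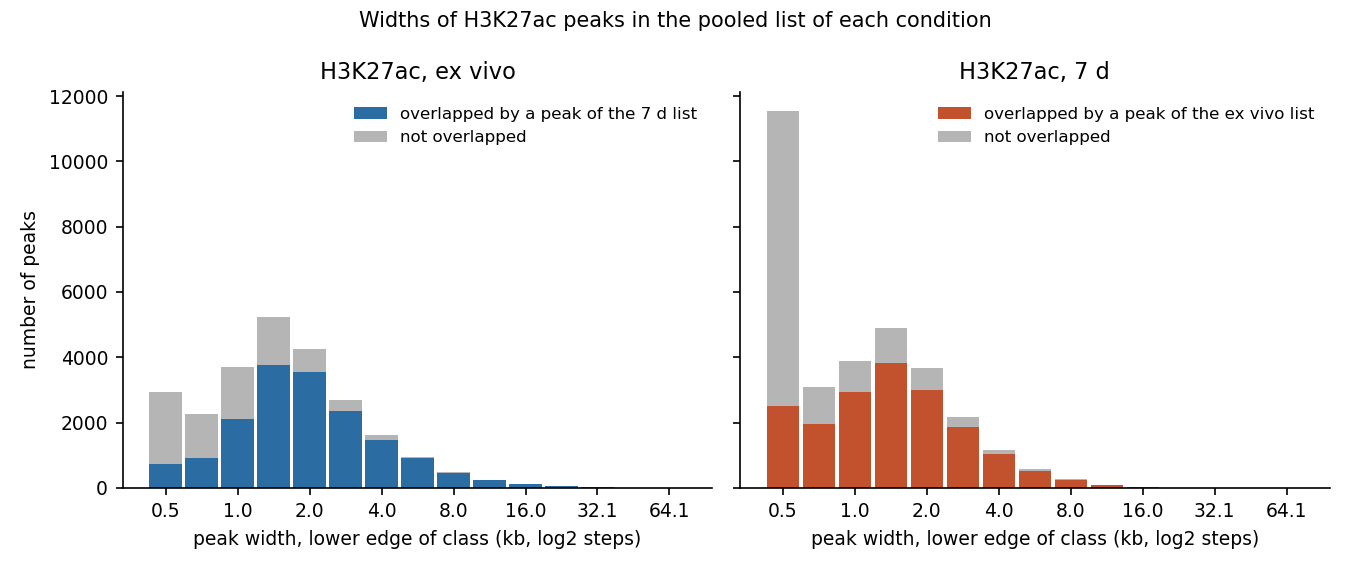
Number of H3K27ac peaks by width, in classes of log2 steps labelled by their lower edge in kb, in the ex vivo list (left) and the 7 d list (right). Coloured parts of the bars are peaks overlapped by a peak of the other list and grey parts are not. The 7 d list has a tall bar of mostly grey narrow peaks, with 30.52% of the list at 501 bp against 8.27% ex vivo.

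The lists shared 33.8 Mb, which is 55.22% of the ex vivo bases, 66.49% of the 7 d bases and 43.2% of the bases in either. By peaks, 16623 of the ex vivo peaks (67.79%) touched a 7 d peak by at least 1 bp, and 18030 of the 7 d peaks (57.51%) touched an ex vivo peak. Of the overlapped 7 d peaks, 10385 (57.6%) lay wholly inside an ex vivo peak. Wholly inside a 7 d peak lay 2625 of the overlapped ex vivo peaks (15.79%). Overlap rose with width. Of ex vivo peaks under 1 kb, 31.62% touched a 7 d peak, of those from 2 to 5 kb 85.44%, and of the 88 peaks of 20 kb or more, all 88. These widest domains kept 57.7% of their bases, and 92.05% of them were covered at 7 d by several separate peaks, up to 11.

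The fall in called cover from ex vivo to 7 d was larger at gene starts than away from them, between lists of unlike depth and enrichment. Peaks that held or came within 1 kb of a start covered 25.9 Mb ex vivo and 18.7 Mb at 7 d, a ratio of 0.719. Peaks away from starts covered 33.7 and 30.9 Mb, a ratio of 0.917. With peaks of at least 1 kb alone the ratios were 0.687 and 0.767, so the gap between start and distal cover was smaller without the narrow peaks.

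Peaks found in one list only differed in how often other marks lay beneath them. The 7897 ex vivo peaks with no 7 d counterpart had a median width of 1084 bp. Of these, 76.76% overlapped open chromatin (an ATAC-seq peak) ex vivo and 73.71% a PU.1 peak ex vivo, and 71.42% still overlapped an ATAC-seq peak of cultured cells. The ATAC-seq list of cultured cells pools a library labelled 7 d and a library labelled 8 d. The 13319 peaks specific to 7 d had a median width of 501 bp, and 40.69% overlapped an ATAC-seq peak of cultured cells. Width separated these. Of the 7877 at the narrowest width only 13.96% overlapped such open chromatin, against 94.88% of the 3147 that were at least 1 kb wide. Of the latter, 61.07% also overlapped an ATAC-seq peak ex vivo and 50.08% a PU.1 peak ex vivo. The ATAC-seq and PU.1 lists hold narrow peaks called in another mode than the histone lists, so a wide histone peak has more room to overlap one.

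The 5 widest ex vivo peaks were each covered by several peaks at 7 d. The 62.6 kb peak spanned Zfp710, which encodes a zinc finger protein, and 66.71% of its bases were in 9 peaks at 7 d. A 46.7 kb peak over the fractalkine receptor gene Cx3cr1 kept 59.55% in 6 peaks. A 45.6 kb peak over the integrin gene Itgb5 and its neighbour Umps kept 44.09%. A 43.9 kb peak over Adap2, Rnf135 and Tefm kept 67.99% in 7 peaks. A 43.6 kb peak over Inpp5d, which encodes the lipid phosphatase SHIP1, kept 55.25%. Further down the order, a 39.9 kb peak over P2ry12, P2ry13 and Med12l kept 37.3% in 7 peaks. At 7 d the widest were a 29.3 kb peak in Tns3, a tensin of focal adhesions, and a 27.6 kb peak on Lrp1, a receptor for lipoproteins, of whose bases 68.84% and 82.4% were acetylated ex vivo. A 25.8 kb peak on Ctsd, the gene of the lysosomal protease cathepsin D, was 99.23% contained in the ex vivo list, and a 25.4 kb peak on Cttnbp2nl 89.66%. By contrast a 24.3 kb peak on Adam8, which encodes a membrane metalloprotease, had 20.18% of its bases in the ex vivo list. A 26.1 kb peak at chr16:25037202-25063273 (mm10) had 14.02%, and no named gene was the nearest to it within 100 kb. Unnamed gene models were left out of this listing.

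Cover per gene was the summed width of all peaks whose nearest gene body, within 100 kb, was that gene, and a peak at equal distance of several genes counted for each. One wide ex vivo peak can thus count for several genes while its 7 d pieces go to the nearest one. As a second measure, bases in the gene body and 5 kb on either side were summed. Of 14384 genes with cover in either list, 3293 (22.9%) had at least 2-fold fewer bases at 7 d or bases ex vivo only, and 2860 (19.9%) had at least 2-fold more or bases at 7 d only. By the second measure, these shares were 22.3% and 15.9% of 14028 genes. With peaks of at least 1 kb alone the balance moved, to 1951 genes with bases ex vivo only and 1811 with fewer against 533 with more and 700 with bases at 7 d only. Of the genes with fewer bases, 29.8% shared an ex vivo peak with another gene, against 31.5% of all genes with ex vivo bases. The median gene with cover in a list had 2.78 kb ex vivo and 2.11 kb at 7 d. Of the genes named below, Siglech, Slc2a5, Trem2, Pparg, Tfec, Mitf, Bhlhe40, Tgfb1, Plin2, Mmp12, Mmp13, Abca1, Fos, Ifit1, Ep300, Crebbp, Hdac7, Ms4a7 and Slc1a3, like Adam8 above, were picked after their values were seen.

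**Figure D2:**
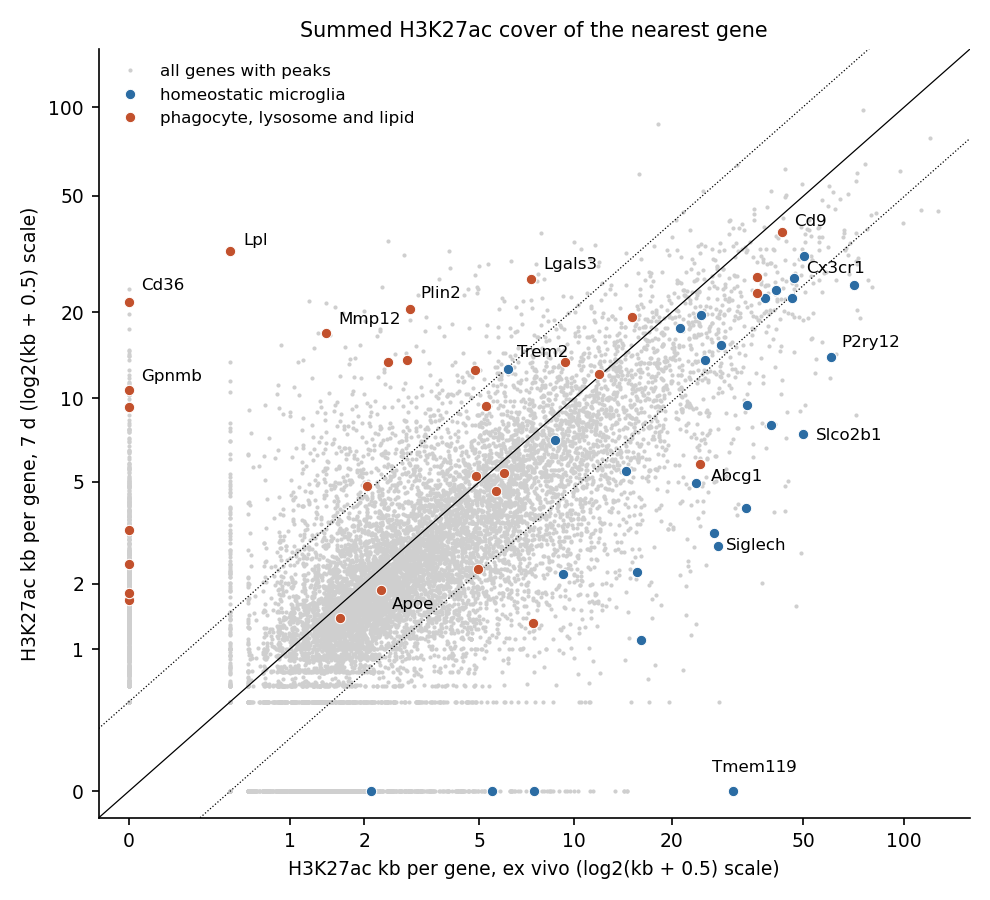
Summed H3K27ac peak width per gene, ex vivo on the horizontal axis and at 7 d on the vertical axis, both in kb on a log2(kb + 0.5) scale, with 1 point per gene. Homeostatic genes are blue, phagocyte, lysosome and lipid genes are red, the solid line marks equal cover and the dotted lines 2-fold differences. P2ry12 (60.5 and 14.0 kb) and Slco2b1 (49.8 and 7.48 kb) lie below the diagonal, and Lpl (0.501 and 32.4 kb) lies above it.

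The homeostatic microglial genes had the largest fall in called bases of the 9 gene lists examined. Their summed cover was 805 kb ex vivo and 302 kb at 7 d over 28 genes, and the median gene went from 27.2 to 7.78 kb. Of the 28, 18 had at least 2-fold fewer bases or none at 7 d, 9 stayed within 2-fold and 1, Trem2, had more. By the second measure 18 had fewer and none had more, against 22.3% and 15.9% of all genes with cover. By the first measure these all-gene shares were 22.9% and 19.9%. RNA of 27 of the 28 genes fell at 7 d, none rose, and the median log2 fold change was -3.89. Over all 13840 genes tested with edgeR's quasi-likelihood test (Benjamini-Hochberg adjusted p below 0.05), 34.8% were higher (4821) and 35.7% lower (4943) at 7 d. With limma on TPM without a filter on low values the split was 3886 higher and 6112 lower. In bulk libraries, fewer cells of a type and less RNA or mark per cell cannot be told apart.

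P2ry12, the ADP receptor that steers microglial processes, had 60.5 kb of H3K27ac ex vivo in 4 peaks and 14.0 kb at 7 d in 7 peaks. All of it is shared with a neighbouring gene, and in the gene body with 5 kb on either side the values were 50.1 and 16.05 kb. The 7 d peak over its start was 6.63 kb wide where the ex vivo peak was 12.4 kb. Its RNA was 4208, 6972, 5926, 3111 and 3199 counts scaled to the library total (CPM) in the 5 ex vivo libraries and 44.9, 39.7, 45.1, 30.8 and 38.6 at 7 d. Every ex vivo library was above every 7 d library, and the log2 fold change was -6.80 ± 0.39 (SE, n = 5 and 5, edgeR adjusted p = 2.8e-10).

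Siglech had 26.8 kb ex vivo and 3.19 kb at 7 d, and the 24.4 kb peak that spanned its start ex vivo gave way to a 2.69 kb peak beyond the gene's end. Its RNA was 1257, 1602, 1553, 1344 and 1285 CPM ex vivo and 1.89, 1.57, 1.81, 0.321 and 0.786 CPM at 7 d, a log2 fold change of -10.03 ± 0.41 (edgeR adjusted p = 8.06e-12). The groups did not overlap. Slc2a5 went from 9.23 to 2.19 kb with an RNA log2 fold change of -9.55 ± 0.50 (edgeR adjusted p = 1.82e-10), and its ex vivo peak of 7.16 kb over the start shrank to a 1.69 kb peak upstream of it.

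Slco2b1, an organic anion transporter, carried 49.8 kb ex vivo in 4 nearly adjoining peaks and 7.48 kb at 7 d in 7 peaks. Its RNA lay between 2647 and 3492 CPM ex vivo and between 1.44 and 37.1 CPM at 7 d, with a log2 fold change of -7.60 ± 0.79 (edgeR adjusted p = 6.26e-07). Libraries 2 and 3 of the 7 d group held the highest values, 26.5 and 37.1 CPM, and all 5 were far below the ex vivo range. Tmem119, a surface protein used to mark microglia, had 30.7 kb ex vivo in 1 peak that also covers its neighbour Selplg, and no peak nearest to it at 7 d. In its gene body and 5 kb around, 12.5 kb lay in peaks ex vivo and none at 7 d. Its RNA was 2758, 2616, 3554, 2532 and 3405 CPM ex vivo and 26.5, 15.1, 18.1, 9.75 and 14.1 CPM at 7 d, without overlap (log2 fold change -7.40 ± 0.34, edgeR adjusted p = 1.81e-11).

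Some homeostatic genes kept more of their cover than others. Cx3cr1 had 46.7 kb ex vivo in 1 peak and 26.3 kb at 7 d in 5 peaks, with RNA of 8739 to 10549 CPM ex vivo and 616 to 1261 CPM at 7 d (log2 fold change -3.22 ± 0.18, edgeR adjusted p = 1.57e-10). Csf1r, the receptor for the IL-34 in the medium, had 38.3 and 22.4 kb and an RNA log2 fold change of -2.74 ± 0.12 (edgeR adjusted p = 9.33e-12). Mertk, a receptor that takes up dying cells, was not among these, with 70.7 and 24.9 kb. Mertk RNA fell less than that of Cx3cr1 and Csf1r, with a log2 fold change of -1.55 ± 0.20 (edgeR adjusted p = 3.11e-06). Trem2, a lipid-sensing receptor, had 6.20 kb ex vivo and 12.7 kb at 7 d. Its RNA was 671, 596, 1060, 552 and 648 CPM ex vivo and 659, 1022, 1237, 696 and 862 CPM at 7 d, and the overlapping groups gave a log2 fold change of 0.41 ± 0.18 that did not pass the test (edgeR adjusted p = 0.0568).

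**Figure D3:**
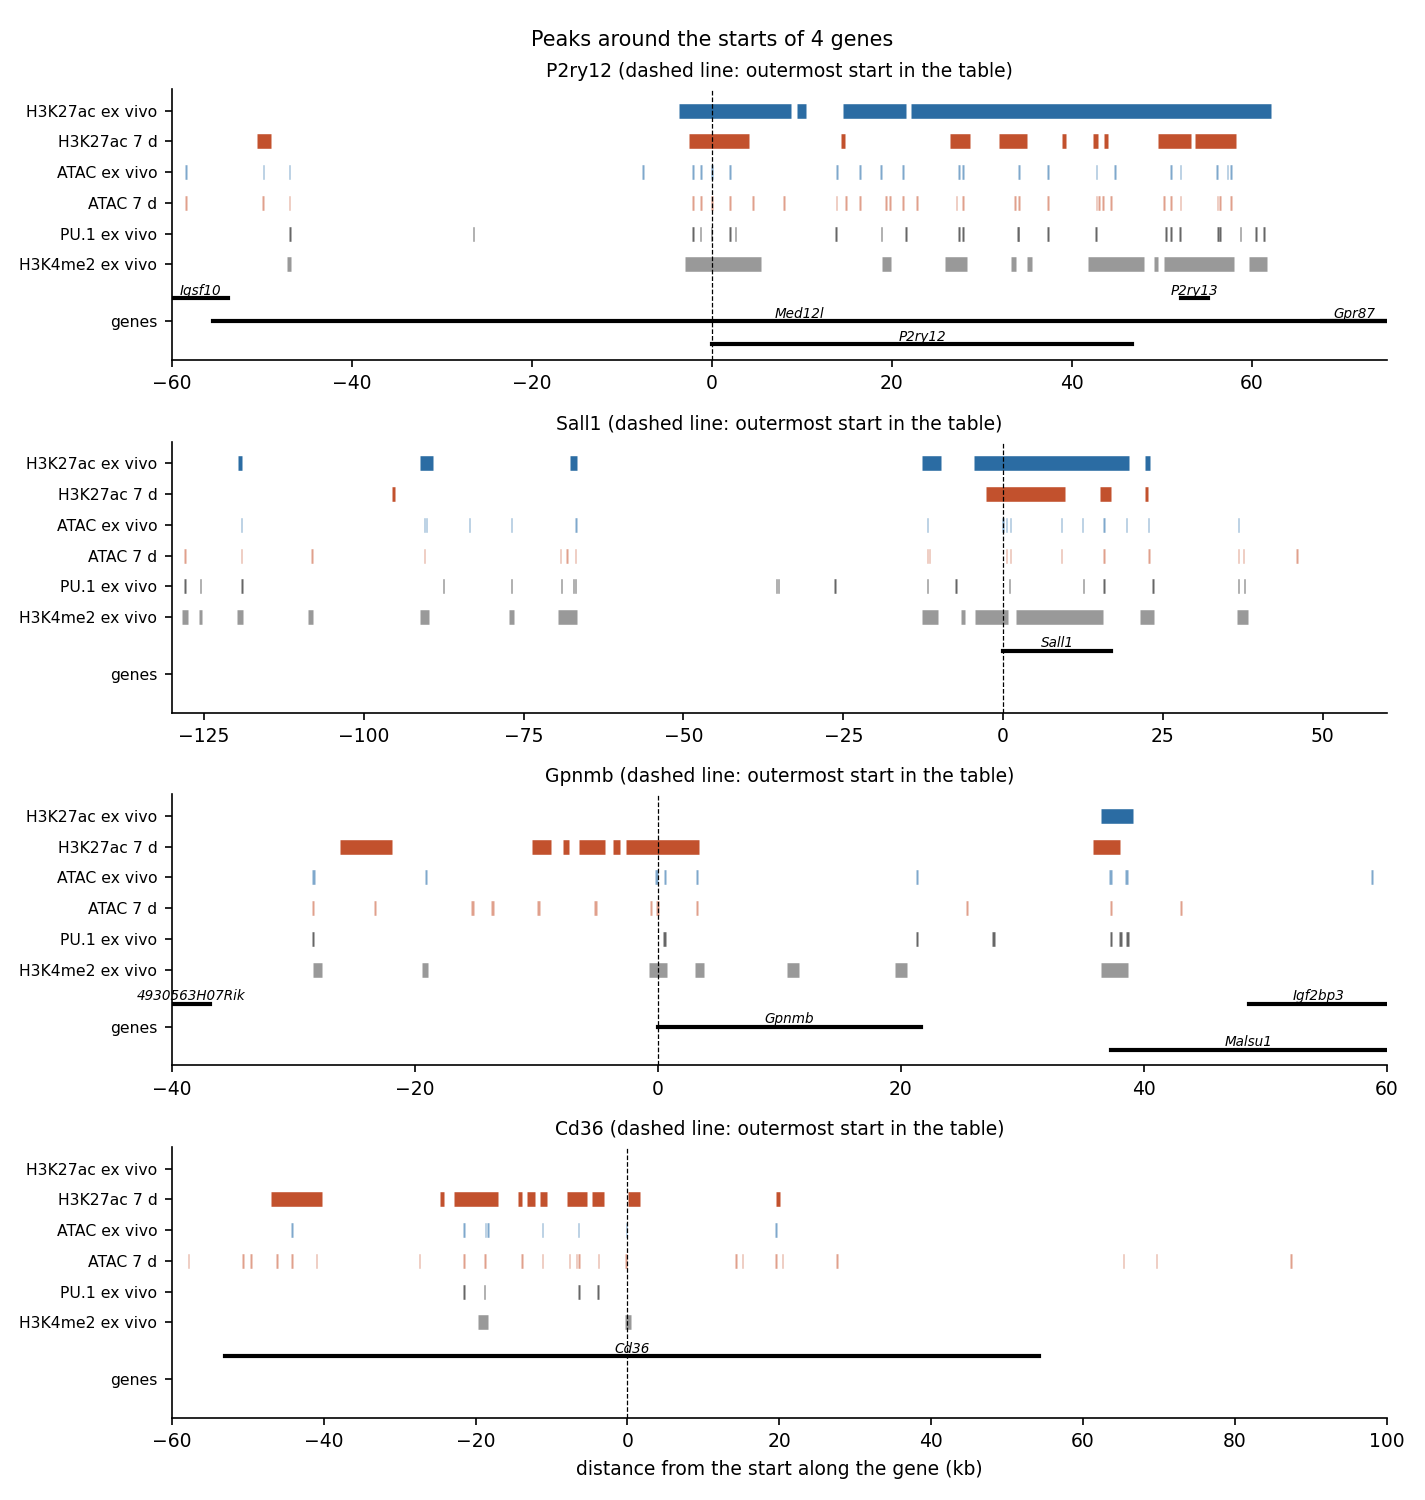
H3K27ac and ATAC-seq peaks ex vivo and at 7 d, with PU.1 and H3K4me2 peaks ex vivo, as bars around 4 genes against distance in kb from the gene's outermost start in the promoter table. At P2ry12 and Sall1 the ex vivo H3K27ac bars are longer than the 7 d bars, at Cd36 the H3K27ac bars are present at 7 d only, and at Gpnmb the single ex vivo bar starts 36.495 kb past the start, where a 7 d bar overlaps it.

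Lineage transcription factors moved in both directions. Of 29 with cover, 5 had fewer bases, 3 had more and 21 were within 2-fold, with 644 kb ex vivo and 507 kb at 7 d. Over all genes with cover, 22.9% had fewer bases and 19.9% more. RNA of 8 of the 30 rose and that of 11 fell, with a median log2 fold change of -0.20. These counts are near those over all genes, of which 34.8% were higher and 35.7% lower. Spi1, which encodes PU.1, had 24.3 and 21.0 kb. Its RNA was 285, 208, 330, 190 and 259 CPM ex vivo and 290, 338, 354, 389 and 305 CPM at 7 d, overlapping groups with a log2 fold change of 0.46 ± 0.13 (edgeR adjusted p = 0.005), which limma on TPM did not call (adjusted p = 0.0739 with a pseudocount of 1). Mef2c, a MADS-box factor, had 62.3 and 45.1 kb and an RNA log2 fold change of -0.05 ± 0.16 (edgeR adjusted p = 0.787).

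Sall1, the zinc finger factor of the homeostatic programme, had 31.2 kb ex vivo and 15.2 kb at 7 d. The 24.2 kb peak over the gene became peaks of 12.4 and 1.81 kb, and 3 ex vivo peaks 9713, 66632 and 89089 bp upstream of the start were not overlapped at 7 d, although all 3 sites lay under ATAC-seq peaks in both conditions. Within the gene body and 5 kb around it, cover went from 24.2 to 14.2 kb, which is inside 2-fold. Its RNA was 1595, 2112, 2045, 2169 and 2239 CPM ex vivo and 170, 85.8, 111, 159 and 169 CPM at 7 d, with a log2 fold change of -3.79 ± 0.25 (edgeR adjusted p = 1e-09) and no overlap between the groups.

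The factors that gained bases came from other programmes. Pparg, a nuclear receptor of lipid metabolism, had 2.29 kb in 2 peaks ex vivo and 17.2 kb in 13 peaks at 7 d. Its RNA was 0 in 3 ex vivo libraries, 0.066 and 0.32 CPM in the other two, and 6.96 to 16.3 CPM at 7 d (log2 fold change 6.93 ± 0.59, edgeR adjusted p = 2.25e-08). Tfec, an MITF-family factor, had 1.02 kb and 6.15 kb and a peak over its start at 7 d only, with a log2 fold change of 4.77 ± 0.46 (edgeR adjusted p = 2.05e-07). Mitf itself had 19.4 and 32.8 kb, within 2-fold, and rose by 1.66 ± 0.16 on the log2 scale (edgeR adjusted p = 9.59e-08). Bhlhe40, an E-box factor, had no peak nearest to it ex vivo and 3.26 kb at 7 d, but 1.37 kb of a neighbour's ex vivo peak lay within 5 kb of its body. Zfhx3, a homeobox factor outside this list, had the most cover of all genes ex vivo, 126 kb in 30 peaks, and 44.3 kb in 29 peaks at 7 d, with an RNA log2 fold change of -2.35 ± 0.25 (edgeR adjusted p = 3.2e-07).

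Of the TGFβ pathway, some genes had less cover at 7 d. TGFβ binds a receptor pair, whose kinase activity sends SMAD proteins to the nucleus, and SKI and PMEPA1 dampen the signal. Of 23 listed genes with cover, 8 had fewer bases and 2 more, each of the latter with one 501 bp peak, and the sum went from 372 to 195 kb. RNA of 12 of 22 genes tested fell and that of 5 rose (2 rose with limma on TPM and a pseudocount of 1). Among all genes with cover, 22.9% had fewer bases and 19.9% more, and among all genes tested 35.7% were lower and 34.8% higher. Tgfb1, the ligand, had 22.1 and 8.02 kb, but 16.3 and 9.47 kb by the second measure, which is within 2-fold, and an RNA log2 fold change of only -0.28 ± 0.11 (edgeR adjusted p = 0.0331). Its RNA ranged from 458 to 623 CPM ex vivo and from 391 to 456 CPM at 7 d. Tgfbr1, a receptor kinase, had 33.9 and 9.48 kb. Its RNA was 2527, 4271, 2926, 2610 and 2348 CPM ex vivo and 638, 311, 341, 325 and 540 CPM at 7 d (log2 fold change -2.69 ± 0.25, edgeR adjusted p = 7.1e-08). No 7 d library reached the ex vivo range.

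Tgfbr2, the partner receptor, had 77.3 and 38.6 kb, and by the second measure 69.4 and 36.8 kb, within 2-fold, with RNA of 888 to 1131 CPM ex vivo and 665 to 986 CPM at 7 d, overlapping ranges (log2 fold change -0.35 ± 0.12, edgeR adjusted p = 0.013). Smad3, the signal carrier, had 41.1 and 23.7 kb, within 2-fold, and an RNA log2 fold change of -1.99 ± 0.13 (edgeR adjusted p = 1.11e-09). Ski had 57.0 and 15.8 kb and a log2 fold change of -1.68 ± 0.18 (edgeR adjusted p = 4.12e-07). Pmepa1, a gene induced by TGFβ that limits the signal, had 71.7 kb ex vivo in 12 peaks and 8.72 kb at 7 d in 6. Its RNA was 537 to 681 CPM ex vivo and 132, 49.8, 56.7, 46.8 and 59.7 CPM at 7 d, where library 1 stood above the others and below every ex vivo library (log2 fold change -3.07 ± 0.26, edgeR adjusted p = 2.71e-08).

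**Figure D4:**
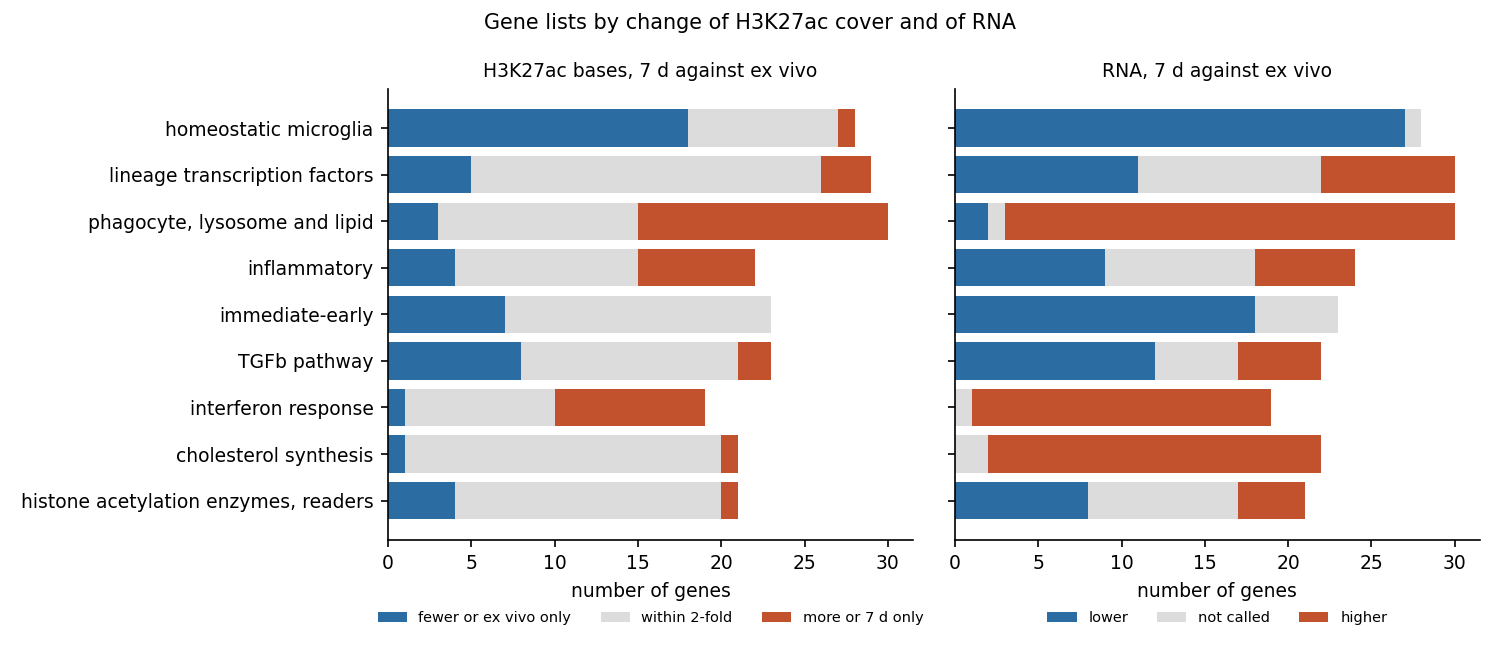
Number of genes of 9 lists by change of H3K27ac cover (left: at least 2-fold fewer or ex vivo only, within 2-fold, at least 2-fold more or 7 d only) and by the RNA test (right: lower, not called, higher at 7 d). Of 28 homeostatic genes 18 have fewer bases and 27 lower RNA, and of 30 phagocyte, lysosome and lipid genes 15 have more bases and 27 higher RNA.

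Phagocyte, lysosome and lipid genes gained cover and RNA. Of 30 genes, 15 had at least 2-fold more bases at 7 d or bases at 7 d only, 3 had fewer and 12 were within 2-fold. The sum went from 239 to 361 kb and the median gene from 3.87 to 10.1 kb. By the second measure 12 of 27 had more bases and 2 fewer. RNA of 27 of the 30 rose and that of 2 fell, with a median log2 fold change of 3.29. Over all genes with cover, 19.9% had more bases and 22.9% fewer. RNA of 34.8% of all genes tested rose and that of 35.7% fell. The 4 listed cathepsin genes, lysosomal proteases, rose in RNA with cover within 2-fold, among them Ctsd with 36.2 and 26.3 kb and a log2 fold change of 1.80 ± 0.16 (edgeR adjusted p = 5.13e-08).

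Lpl, the lipase that frees fatty acids from lipoproteins, had one 501 bp peak ex vivo, 47.0 kb from its gene body, and 32.4 kb in 8 peaks at 7 d. A 10.6 kb peak among them overlapped the edge of the gene body, and most of it lay beyond the gene. It was the widest 7 d peak with no ex vivo counterpart anywhere in the genome. The site held ATAC-seq, PU.1 and H3K4me2 peaks ex vivo. Lpl RNA was 38.3, 42.6, 52.7, 19.3 and 13 CPM ex vivo and 9043, 10594, 10934, 10861 and 10210 CPM at 7 d. The groups were far apart, with a log2 fold change of 8.35 ± 0.36 (edgeR adjusted p = 7e-12). Gpnmb, a glycoprotein of lysosome-rich macrophages, had no peak ex vivo and 10.7 kb in 5 peaks at 7 d, of which a 5.93 kb peak spanned the start. Its RNA was 1.26, 3.58, 1.96, 0.375 and 0.458 CPM ex vivo and 3315, 2096, 2702, 2659 and 3653 CPM at 7 d (log2 fold change 10.96 ± 0.56, edgeR adjusted p = 1.24e-10).

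Cd36, a scavenger receptor for oxidised lipids, had no peak ex vivo and 21.6 kb in 10 peaks at 7 d, all inside its gene body. Of the 10 sites, 5 held an ATAC-seq peak ex vivo. Its RNA was 0.842, 2.26, 3.79, 0.075 and 0.916 CPM ex vivo and 451, 890, 715, 445 and 411 CPM at 7 d, without overlap (log2 fold change 8.54 ± 0.57, edgeR adjusted p = 2.84e-09). The protease genes Mmp12 and Mmp13 went from 1.42 to 17.0 kb and from none to 2.41 kb. Their RNA log2 fold changes were 10.38 ± 0.56 and 9.92 ± 0.46 (edgeR adjusted p = 1.89e-10 and 1.81e-11). Lgals3, the galectin of phagocytes, had 7.31 and 26.0 kb, and Plin2, a coat protein of lipid droplets, 2.92 and 20.6 kb, with log2 fold changes of 9.17 ± 0.37 and 7.24 ± 0.19 (edgeR adjusted p = 3.72e-12 and 1.27e-13).

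The cholesterol exporters moved the other way within this list. Abcg1 had 24.5 kb ex vivo and 5.79 kb at 7 d. Its RNA was 306, 274, 314, 344 and 360 CPM ex vivo and 13.2, 18.5, 24.0, 14.5 and 18.8 CPM at 7 d, without overlap (log2 fold change -4.11 ± 0.18, edgeR adjusted p = 1.09e-11). Abca1 had 36.2 and 23.4 kb, within 2-fold, and an RNA log2 fold change of -2.47 ± 0.39 (edgeR adjusted p = 4.52e-05). Apoe, the lipid carrier that both transporters load, had 2.31 and 1.87 kb and the same 2 peak sites in both lists. Its RNA was 199, 119, 475, 67.8 and 110 CPM ex vivo and 756, 308, 900, 269 and 1030 CPM at 7 d, with overlapping groups and a log2 fold change of 1.86 ± 0.51 (edgeR adjusted p = 0.0043).

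Outside the lists, the largest rises of cover included Rap2b, a small GTPase (2.79 and 31.3 kb), Ell2, a transcription elongation factor (3.97 and 32.4 kb), and Lpp, a LIM protein of focal adhesions (18.2 and 87.7 kb in 8 and 36 peaks). In the gene body and 5 kb around, Rap2b had 2.79 and 5.37 kb, which is inside 2-fold. RNA of Rap2b rose by 4.88 ± 0.14 and that of Ell2 by 5.49 ± 0.24 on the log2 scale (edgeR adjusted p = 1.68e-13 and 7.9e-12). RNA of Lpp rose by 0.69 ± 0.18 (edgeR adjusted p = 0.0027), which limma on TPM without a filter on low values did not call (adjusted p = 0.0503). Umps, an enzyme of pyrimidine synthesis, had the opposite mismatch. Its cover went from 47.5 to 1.60 kb through the wide peak it shares with Itgb5, and its RNA was 28.1 to 39.2 CPM ex vivo and 30.5 to 43.3 CPM at 7 d (log2 fold change 0.20 ± 0.11, edgeR adjusted p = 0.116). Itgb5 itself had 99.6 and 40.5 kb and an RNA log2 fold change of -1.94 ± 0.15 (edgeR adjusted p = 7.33e-09).

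Inflammatory genes moved in both directions, with RNA calls near the 34.8% higher and 35.7% lower of all genes. Of 22 with cover, 4 had fewer bases, 7 more and 11 were within 2-fold, and RNA of 6 of 24 rose and that of 9 fell. Fewer bases were found in 22.9% of all genes with cover and more in 19.9%. Il1a and Il1b, the interleukin-1 cytokines, had 15.0 and 6.74 kb ex vivo and 0.501 and 1.00 kb at 7 d. Il1a RNA was 281, 115, 102, 305 and 101 CPM ex vivo and 1.35 to 2.69 CPM at 7 d (log2 fold change -6.53 ± 0.42, edgeR adjusted p = 1.72e-09), and Il1b RNA was 3.26 to 6.22 CPM ex vivo and at most 0.961 CPM at 7 d (log2 fold change -3.42 ± 0.41, edgeR adjusted p = 2.1e-06). The chemokine genes Ccl3 and Ccl4 had 6.00 and 11 kb ex vivo and 21.9 and 23.3 kb at 7 d. Ccl3 RNA was 555, 115, 23.4, 466 and 346 CPM ex vivo and 220, 566, 458, 476 and 361 CPM at 7 d, overlapping groups that did not pass the test (log2 fold change 0.48 ± 0.55, edgeR adjusted p = 0.445).

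Immediate-early genes, which respond to stimuli within minutes, had fewer bases in 7 of 23 cases and more in none. The shares over all genes with cover were 22.9% and 19.9%. RNA of 18 of the 23 fell while none rose, against 35.7% lower and 34.8% higher over all genes tested. Summed RNA of the 23 genes ranged from 1492 to 45105 CPM between ex vivo libraries and from 1638 to 1940 CPM at 7 d. Cover of Fos, an AP-1 subunit, was 17.9 and 20.0 kb. Fos RNA was 5369, 566, 26.3, 2118 and 2010 CPM ex vivo and 96.9, 57.7, 54.5, 130 and 73.8 CPM at 7 d. Library 3 ex vivo lay below all 7 d libraries and the other 4 above them (log2 fold change -4.58 ± 0.90, edgeR adjusted p = 0.000354). Nr4a1, an orphan nuclear receptor, had 16.1 and 2.60 kb and Btg2, an antiproliferative gene, 24.7 and 12.2 kb, with log2 fold changes of -3.42 ± 0.71 and -5.32 ± 0.61 (edgeR adjusted p = 0.000518 and 1.58e-06). Atf3, a stress-induced factor, had 19.7 and 31.4 kb and RNA of 18.6 to 1158 CPM ex vivo and 264 to 364 CPM at 7 d (log2 fold change -0.38 ± 0.80, edgeR adjusted p = 0.684).

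Cover of interferon response genes was higher in sum at 7 d. Of 19 with cover, 9 had more bases, 1 fewer and 9 were within 2-fold, and the sum went from 35.4 to 66.8 kb. RNA of 18 of the 21 listed genes rose, all 18 among the 19 with a gene body, and that of none fell. Under the 18 RNA alternatives, 15 to 20 rose. Higher RNA was found in 34.8% of all genes tested. More bases were found in 19.9% of all genes with cover and fewer in 22.9%. Ifit1, Rsad2 and Oasl2, antiviral effectors, had no cover ex vivo and 1.81, 3.14 and 3.90 kb at 7 d. Rsad2 RNA was 2.34, 2.25, 2.33, 1.05 and 0.687 CPM ex vivo and 46.3, 52.2, 53.9, 56.9 and 8.52 CPM at 7 d. Library 5 of the 7 d group was the lowest, at 8.56 CPM for Ifit1 and 35.4 CPM for Oasl2 as well, and still above every ex vivo library. The log2 fold changes were 4.37 ± 0.81 for Ifit1, 4.68 ± 0.79 for Rsad2 and 4.80 ± 0.86 for Oasl2 (edgeR adjusted p = 0.000199, 8.46e-05 and 0.000144).

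RNA of cholesterol synthesis genes rose over nearly constant summed cover. RNA of 20 of 22 rose and none fell, with a median log2 fold change of 2.43, while cover summed to 53.6 kb ex vivo and 55.7 kb at 7 d and 19 of 21 genes stayed within 2-fold. By the second measure 5 of 22 had more bases, against 15.9% of all genes with cover by that measure and 19.9% by the first. RNA of 34.8% of all genes tested rose. By the first measure, 1 of the 21 genes had at least 2-fold fewer bases and 1 had at least 2-fold more. The gene with more was Fdft1, squalene synthase, with 1.42 and 5.54 kb. Its RNA was 53.2, 49.0, 56.3, 61.7 and 58.8 CPM ex vivo and 235, 355, 386, 186 and 239 CPM at 7 d (log2 fold change 2.38 ± 0.17, edgeR adjusted p = 2.75e-09).

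The enzymes and readers of histone acetylation changed little in cover. Of 21, 16 were within 2-fold, 4 had fewer bases and 1, Hdac7, had more, and RNA of 4 rose and that of 8 fell. The counts with fewer bases and with lower RNA are near the shares over all genes, 22.9% and 35.7%. More bases were found in 19.9% of all genes with cover and higher RNA in 34.8% of all genes tested. Ep300, the acetyltransferase p300, had 9.96 and 8.61 kb. Its RNA was 420, 525, 388, 501 and 607 CPM ex vivo and 363, 194, 212, 351 and 382 CPM at 7 d (log2 fold change -0.63 ± 0.20, edgeR adjusted p = 0.0106). Crebbp had a log2 fold change of -0.63 ± 0.23 (edgeR adjusted p = 0.0209). For both genes, libraries 2 and 3 of the 7 d group were the lowest. Kat6a, another acetyltransferase, had 26.0 and 8.90 kb and a log2 fold change of -1.06 ± 0.16 (edgeR adjusted p = 2.21e-05). Hdac9, a class II deacetylase, had 24.3 and 19.7 kb and rose by 1.44 ± 0.24 (edgeR adjusted p = 5.63e-05).

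Across the genome, RNA at 7 d moved in the direction of cover. Among genes with bases ex vivo only (1015, of which 703 were tested), 58.18% were lower and 12.23% higher at 7 d, with a median log2 fold change of -1.06. Genes with no bases in either list had a median of -0.93 (1149 tested, 45.95% lower). Among the 2278 genes with at least 2-fold fewer bases the median was -0.63, and 56.64% were lower. The 8231 genes within 2-fold had a median of 0.15, with 40.35% higher and 29.83% lower. Among the 809 genes with more bases 68.9% were higher and the median was 1.18. Of the 2051 genes with bases at 7 d only, 669 passed the filter on low counts, 47.68% of these were higher, and the median was 0.74. That last median turned to -0.58 with DESeq2 and -0.48 without the filter, where the genes that had been left out (the tested share of the class was 32.62%) entered. The median of the class within 2-fold turned to -0.05 with limma on TPM.

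Libraries 2 and 3 of the 7 d group stood apart in the outer classes. Relative to the ex vivo mean, their class medians were -0.78 and -0.76 for genes with bases ex vivo only, where the other 3 lay between -1.17 and -1.09. Without these libraries the fold change medians were -1.29 for that class, -0.64 for fewer bases, 0.11 within 2-fold, 1.19 for more bases and 0.47 for 7 d only.

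**Figure D5:**
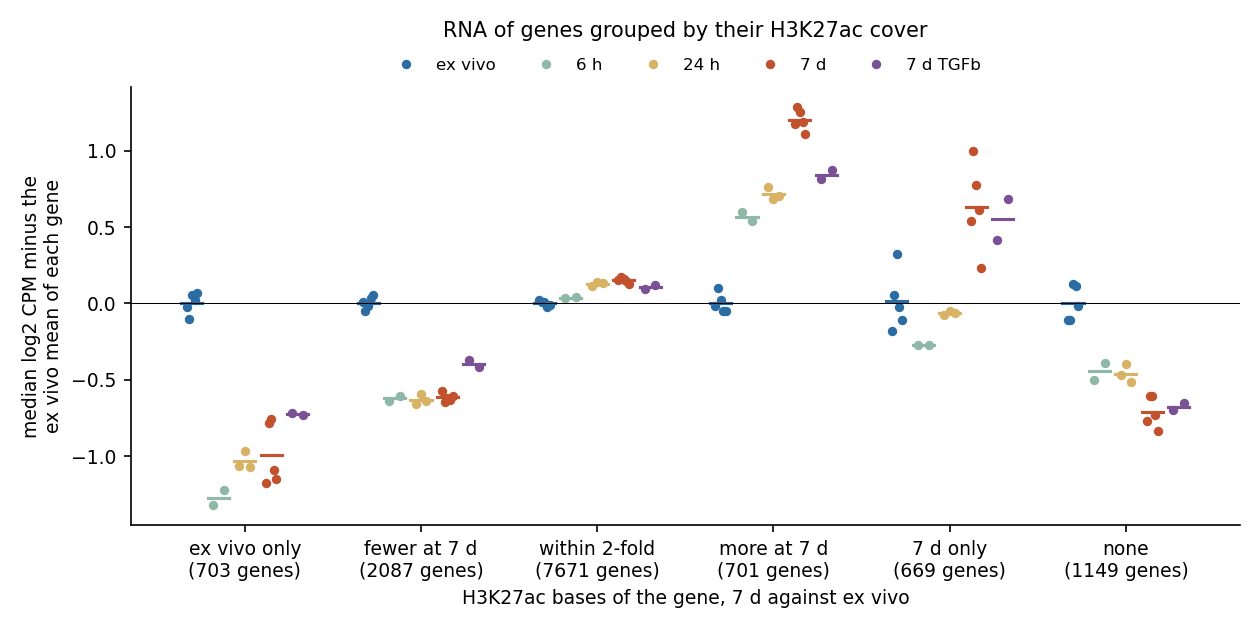
Median over the genes of each H3K27ac class of log2 CPM minus that gene's ex vivo mean, with 1 point per RNA library, colour by condition and a bar at the mean of the libraries. At 7 d the points lie from -1.17 to -0.76 for genes with bases ex vivo only and from 1.11 to 1.29 for genes with more bases.

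The steps were larger for genes with at least 5 kb in 1 of the lists. The 40 tested genes that had lost all cover had a median log2 fold change of -3.76 and 85.0% were lower. Those with a ratio of 7 d to ex vivo bases of up to 0.25 had -1.37 (323 genes), from 0.25 to 0.5 -0.79 (818), from 0.5 to 1 -0.24 (1640), from 1 to 2 0.57 (794) and from 2 to 4 0.98 (286). The 185 genes with a ratio of 4 or more, or none ex vivo, had 3.58 and 87.03% were higher. Genes were also grouped by cover at the start. A start near a 7 d peak only went with a median of 1.92 (353 tested genes, 65.16% higher). A start near an ex vivo peak only went with -0.92 (727 genes, 58.18% lower), close to the -0.94 of starts near neither (1725 genes, 47.3% lower). Genes that had more bases and a start marked at 7 d only had a median of 4.41 (51 genes, 80.39% higher). Across 10459 genes, Spearman's rho between the log ratio of bases and the RNA log2 fold change was 0.386, a description in which genes are not independent replicates and share the same libraries.

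The lower RNA of genes with bases ex vivo only or with fewer bases at 7 d was already present early in culture. Genes with bases ex vivo only had medians against ex vivo of -1.50 at 6 h (2 libraries), -1.21 at 24 h (3 libraries) and -1.06 at 7 d, genes with fewer bases had -0.67, -0.67 and -0.63, and genes with no bases in either list had -0.72, -0.66 and -0.93. Genes with more bases went from 0.54 at 6 h to 0.73 at 24 h and 1.18 at 7 d. Those with bases at 7 d only had -0.54, -0.14 and 0.74. These comparisons share the ex vivo libraries. With TGFβ added for 7 d (2 libraries), medians against 7 d without it were 0.12 for bases ex vivo only, 0.14 for fewer, -0.07 within 2-fold, -0.36 for more and -0.07 for 7 d only. H3K27ac of cells at 6 h, at 24 h or with TGFβ was not analysed here.

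Markers of the cell types that the sort could hold were read in both lists. All 8 microglial markers had cover ex vivo, 260 kb in sum, and 7 of 8 at 7 d with 84.0 kb. Their summed RNA was 25780 to 30614 CPM ex vivo and 1232 to 2612 CPM at 7 d. The 8 markers common to macrophages kept cover in all 8 genes, with 234 and 145 kb. Border macrophage markers moved in both directions. Of the 6 with cover, 2 had at least 2-fold fewer bases and 4 had more or bases at 7 d only. RNA of 3 of 8 rose and that of 2 fell. By the second measure Mrc1, Cbr2 and Folr2 were within 2-fold. The set had 13 kb ex vivo in 3 of 8 genes and 32.9 kb at 7 d in 6 of 8. The most of that was at Ms4a7, a membrane protein, which had no cover ex vivo and 17.5 kb at 7 d, with RNA of at most 1.92 CPM ex vivo and 93.6 to 157 CPM at 7 d (log2 fold change 7.54 ± 0.50, edgeR adjusted p = 2.93e-09), while Lyve1 and Cd163 had none in either list. Neutrophil markers had cover in none of 8 genes ex vivo and 1 at 7 d. Their summed RNA was 3.37 to 194 CPM ex vivo and 1.89 to 4.88 CPM at 7 d, ranges that overlap. RNA of 7 of the 8 fell in the main fit. With the ex vivo and 7 d libraries alone 3 were tested, and 2 of these fell. Astrocyte markers had 33.5 and 9.96 kb with summed RNA of 173 to 405 CPM ex vivo and 8.97 to 12.9 CPM at 7 d. Most of that cover was at Slc1a3, with 27.8 and 4.75 kb in the gene body and 5 kb around. By that measure Aldh1l1, Aldoc, Slc1a2 and S100b were within 2-fold, and the other listed astrocyte genes had no cover. Oligodendrocyte markers had 29.6 and 21.5 kb with summed RNA of 88.2 to 222 CPM ex vivo and 47.3 to 71.6 CPM at 7 d. Neuron markers had 2.55 and 5.52 kb with summed RNA of 10.5 to 61.1 CPM ex vivo and 1.03 to 3.23 CPM at 7 d. Monocyte markers had 9.88 and 13.9 kb in 3 of 6 genes. Their summed RNA was 5.77 to 51.3 CPM ex vivo and 3.78 to 6.22 CPM at 7 d, ranges that overlap. RNA of all 6 fell in the main fit, but with the ex vivo and 7 d libraries alone only 2 were tested, and these 2 fell. Mural and fibroblast markers had 2.85 and 7.78 kb with summed RNA of 3.32 to 6.87 CPM ex vivo and 79.3 to 122 CPM at 7 d, and of the 3 tested RNA of 1, Anpep, rose, and that of 1, Pdgfrb, fell. The part of other cells in the H3K27ac differences was not tested.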

How the data were processed

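H3K27ac and 3 other signals were mapped in sorted mouse microglia, and RNA was sequenced in 17 microglial libraries of 13338672 to 28841472 counts. Per the file headers, the authors called H3K27ac peaks with HOMER in its histone mode, on 1 pooled tag directory per condition against pooled input. The tag minimum was 24 ex vivo and 17 at 7 d. Relative to the tags expected per peak at each depth, the 7 d minimum was the higher, at 2.467 times against 2.106 times ex vivo. The deposited lists hold coordinates only, with no height. Per the submitters' processing notes, the build was mm10 and the tools included STAR, Bowtie2, HOMER, bedtools and limma, with R 3.3.1. How each was used is not stated. The deposited count table holds whole read counts per gene symbol. The deposited TPM table, trimmed by the authors, was used for alternatives only.

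Overlaps were computed with bedtools 2.31.1 and pandas 2.3.3 (at least 1 bp). Peaks went to the nearest gene body within 100 kb among 21986 RefSeq gene bodies (GRCm38.p6) whose symbols are in the count table (23675 of 24537 symbols matched), and 97.67% of ex vivo and 93.75% of 7 d peaks found one. A gene is called within 2-fold when its summed bases differ by less. Gene starts came from the RefSeq promoter table.

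RNA counts were fitted with edgeR 4.0.16 (quasi-likelihood test, TMM, filter on low counts, 17 libraries, one coefficient per condition), with Benjamini-Hochberg adjustment over 13840 genes and a threshold of 0.05. CPM values are counts divided by a library's total and multiplied by 1000000. On simulated data of these libraries with 200 changed genes, the fit was tested and recovered 66% of 2-fold and 96% of 4-fold changes, with 4 false calls. The changed genes left out those with low values ex vivo and were far fewer than the genes called here. Recovery in such a setting was not tested.

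The members, the gene lists and the tests were chosen with earlier results of these data known. Genes were named by a rule: 10 genes of microglial biology, those with the most bases or the largest change in bases, those at the 5 widest peaks of each list, and up to 4 members of each gene list with the largest change. Exceptions are stated. Not every gene the rule gives is described, and 1 is not reported here. Alternatives were other overlap minimums, merged or wider peaks only, other ways to assign bases, DESeq2 1.42.0, limma 3.58.1 on log2(TPM + pseudocount), no filter, fewer libraries and a replicate block. The lysate libraries were not used here.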

Additional observations from a re-analysis of the deposited data

Results flagged for a closer look

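Within each group of 5 libraries, the CPM values of the named genes (164 groups, on the log2(CPM + 1) scale) and the class medians (12 groups) were checked, 176 in all, for a highest or lowest library that stood apart by Dixon's criterion. Chance alone gives about 1 such library in 20 groups, and 7 were found. Sall1, the homeostatic zinc finger factor, was at 1595 CPM in ex vivo library 1 and between 2045 and 2239 CPM in the other 4. Pmepa1, the TGFβ-induced inhibitor, was at 132 CPM in 7 d library 1 and between 46.8 and 59.7 CPM in the others. Mef2a, a MADS-box factor, was at 1476 CPM in ex vivo library 2 and between 989 and 1104 CPM in the others. Tgfbr2, the TGFβ receptor, was at 888 CPM in ex vivo library 1 and between 1057 and 1131 CPM in the others. Rsad2, the antiviral effector, was at 8.52 CPM in 7 d library 5 and between 46.3 and 56.9 CPM in the others. 2 genes were near 0 throughout: Spic, a factor of iron-handling macrophages, at 0.091 CPM in ex vivo library 3 and 0 in the others, and Lrrc32, which tethers latent TGFβ, at 0.229 CPM in ex vivo library 5 and at most 0.047 CPM in the others. Neither gene had H3K27ac bases in either list.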

How the results depend on the processing

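Neither H3K27ac list has replicates, so shares and covers have no error beyond the setting used, and a bound on depth could not be given because the lists hold no tag counts per peak. With an overlap of at least 50% of the peak, 51.64% of ex vivo and 53.61% of 7 d peaks were shared, and with 50% of both peaks 46.7% and 36.53%. With peaks of at least 1 kb the shares were 63.21% and 77.1%, the ratio of covered bases 0.731, and the numbers of genes 1951 with bases ex vivo only, 533 with more and 700 with 7 d only. With peaks less than 3 kb apart merged, the shares were 72.72% and 59.05% and the ratio 0.867.

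Median RNA log2 fold changes of the classes moved as follows. DESeq2, which shifted the median of all genes from -0.018 to -0.27, gave -0.749 for fewer bases, 0.047 within 2-fold, 1.002 for more and -0.581 for 7 d only. Limma on TPM without a filter gave -0.294 for ex vivo only, -0.586, -0.045, 0.555 and -0.014. With a pseudocount of 0.1 it gave -0.825 for fewer, -0.054 within, 0.993 for more and 1.078 for 7 d only, with an all-gene shift to -0.179. With a pseudocount of 1 it gave -0.67 for ex vivo only, -0.731, -0.05 and 0.826, with a shift to -0.155. No filter (shift to -0.198) gave -0.676, 0.125, 1.093 and -0.482. Without 7 d libraries 2 and 3, an alternative added after seeing the data, ex vivo only was -1.289 and within 2-fold 0.113. Peaks within 20 kb gave 1.28 for more bases. Gene bodies with 5 kb on either side gave -0.714 for fewer and 1.283 for more. Classes by share of the list gave -0.779, 0.084 and 1.089, and peaks of at least 1 kb -0.467 for ex vivo only, 0.176 within and 1.866 for 7 d only. The ex vivo and 7 d libraries alone gave 1.153 for 7 d only. Leaving out 1 library at a time gave 0.115 to 0.162 within 2-fold, 1.153 to 1.26 for more and 0.582 to 1.077 for 7 d only. Apart from the filter, the cause of these moves was not tested.

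Replicate numbers did not pair the libraries: correlations of the same number ranged from -0.033 to 0.202, and 2 of 5 ex vivo libraries matched their own number best. With the replicate block, 4327 genes were higher and 4203 lower, against 4381 and 4261 in the same libraries without it, and the 7 d only median was 1.205.

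Of 1454 values of the 81 named genes tested, 1396 kept direction and call, 14 lost and 24 gained the call, and 20 changed sign, all of genes not called at first. These were Umps (-0.0138, -0.0143 and -0.0138 with limma on TPM), Mef2c (-0.1291 to 0.08 without 1 library), Atf3 (0.9783, 1.005 and 0.9783 with limma, 1.1977 with the block, 0.5252 without ex vivo library 1, and -0.7134 at the lowest without 1 library), Klf6 (0.1267 with the block, -0.4362 to 0.3193 without 1 library) and Hdac5 (-0.0434 with DESeq2, -0.1457, -0.1473 and -0.1457 with limma, -0.0561 to 0.0694 without 1 library). With the block 13 of 23 immediate-early genes were lower and with limma 16, against 18. No called member of the 9 gene lists changed direction under the 18 RNA alternatives.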
